A study of Arabidopsis thaliana with 12 samples.

Results

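Leaves of the Arabidopsis thaliana double mutant ssi2 act1 were searched for genes whose level was set apart from that of every other genotype in the series, and 89 genes of 13350 measured met the rule, 30 on the high side and 59 on the low side. The rule took the mean of log2(signal + 16) over the 3 arrays of a genotype. It asked that ssi2 act1 lie at least 1 above, or at least 1 below, each of ssi2, ssi2 sid2 and wild type, that every ssi2 act1 array lie beyond all 9 others, and that the highest of the 4 genotype means be at least 8, a signal of about 240. Genes with a symbol beginning UGT or CYP and 5 single genes (PDF1.2, PDF1.2b, BHLH101, AT5G05250 and COR27) were left out. The members were thus chosen by the signals of all 12 arrays. Every level of a member in ssi2 act1 against the other genotypes given here describes that choice and was not tested.

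Oleic acid is made in plastids by the desaturase that SSI2 encodes, and plants without it hold little of this fatty acid, stay small and keep salicylic acid defences switched on. ACT1 encodes the plastid acyltransferase that moves oleic acid onto glycerol-3-phosphate, and loss of ACT1 in ssi2 plants is known to bring the oleic acid pool back. SID2 encodes isochorismate synthase, which supplies most of the salicylic acid made under attack, and its loss in ssi2 plants lowers salicylic acid while the shortage of oleic acid remains.

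The 4 genotypes were ssi2 act1, ssi2, ssi2 sid2 and wild type, with 3 arrays each, described as biological replicates. All 3 mutant lines carry the ssi2 mutation, so none of them shows act1 or sid2 alone. The labels place all plants in the Col-0 background, which the sample titles name for wild type alone. This was not checked here against the origin of the ssi2 mutation. The plants were 4 weeks old by their sample entries (3 to 4 weeks by the growth protocol) and grew in a chamber at 22 °C and 65% humidity with 14 h of light, and leaf RNA was taken without further treatment. Whether the replicates came from separate growths is not stated, and each p-value is relative to the spread of these samples alone. In whole leaves, fewer cells of a type and less RNA per cell cannot be told apart.

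The precision is limited by 3 arrays a genotype. Median signals per array ranged from 101 to 138 in ssi2 act1 and from 95.7 to 158 in the other genotypes, and replicates correlated with Pearson's r of 0.914 to 0.982 over probe sets. The 3′ ubiquitin control read 9696 to 10874 in ssi2 act1 and 12522 to 17552 in the other genotypes, and its 5′ counterpart 6048 to 6705 against 9844 to 15251, with no overlap in either case. The ratio of the 3′ to the 5′ reading was 1.52 to 1.65 in ssi2 act1 and 0.995 to 1.48 in the other genotypes, again without overlap. The ribosomal RNA control stood at 1817 in ssi2 replicate 3, against 174 to 600 in the other 11 arrays. Wild type replicate 2 had the lowest median signal of all arrays, 95.7, and the lowest mean r with its replicates, 0.917. These 2 arrays were also left out together in an alternative given below. The 3′ actin control set wild type apart from every mutant line, at 7322 to 11718. It read 1231 to 1983 in ssi2 act1, 1067 to 1390 in ssi2 and 1416 to 1687 in ssi2 sid2. The part of these readings in the results was not tested. The leaf marker RCA, rubisco activase, had signals of 8251 to 13348 in ssi2 act1 and of 2419 to 21357 over the other genotypes, so RCA was bright on every array. The signals of the 3 measured root markers summed to 79.1 to 121 in ssi2 act1, 73.4 to 352 in ssi2, 77.1 to 129 in ssi2 sid2 and 47.9 to 105 in wild type. SSI2, ACT1 and SID2 have no probe set named for them alone in the annotation used, so the labels were not checked on the mutated genes.

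The rule was met by 65 probe sets on the high side, which is 0.286% of the 22746 tested, and by 131 on the low side, which is 0.576%. The demand that every ssi2 act1 array lie beyond all 9 others was met alone by 1.73% of probe sets above and 1.78% below. Of those on the high side, 35 are annotated to 1 gene, 27 carry no gene name and 3 carry several. 4 of the 35 belonged to genes that the rule leaves out (COR27, AT5G05250, UGT85A4 and UGT85A5), and 1 was the dimmer of several probe sets of AT3G18930, whose brightest did not meet the rule. On the low side 62 are annotated to 1 gene, 67 carry no gene name and 2 carry several, and PDF1.2b, UGT76E11 and UGT71B1 were left out. The same rule turned on the other genotypes gave 147 genes higher and 73 lower in ssi2, 101 higher and 19 lower in ssi2 sid2, and 68 higher and 46 lower in wild type. These counts stand side by side and the differences between them were not tested.

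The margin of a gene is the difference on the log2(signal + 16) scale between ssi2 act1 and the nearest other genotype mean. It ranged from 1.02 to 2.46 over the 30 higher genes, with a median of 1.23, and from -3.02 to -1.02 over the 59 lower genes, with a median of -1.38. A margin of 1.5 or more was held by 7 higher and 26 lower genes, and one of 2 or more by 4 and 11. The genotype nearest to ssi2 act1 was wild type for 18 of the higher genes, ssi2 for 7 and ssi2 sid2 for 5. Among the lower genes it was wild type for 37, ssi2 for 15 and ssi2 sid2 for 7. In ssi2 act1 the mean signals of the higher genes ran from 248 to 10508 and none was under 100, while those of the lower genes ran from 3.2 to 1457 and 30 were under 100.

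**Figure D1:**
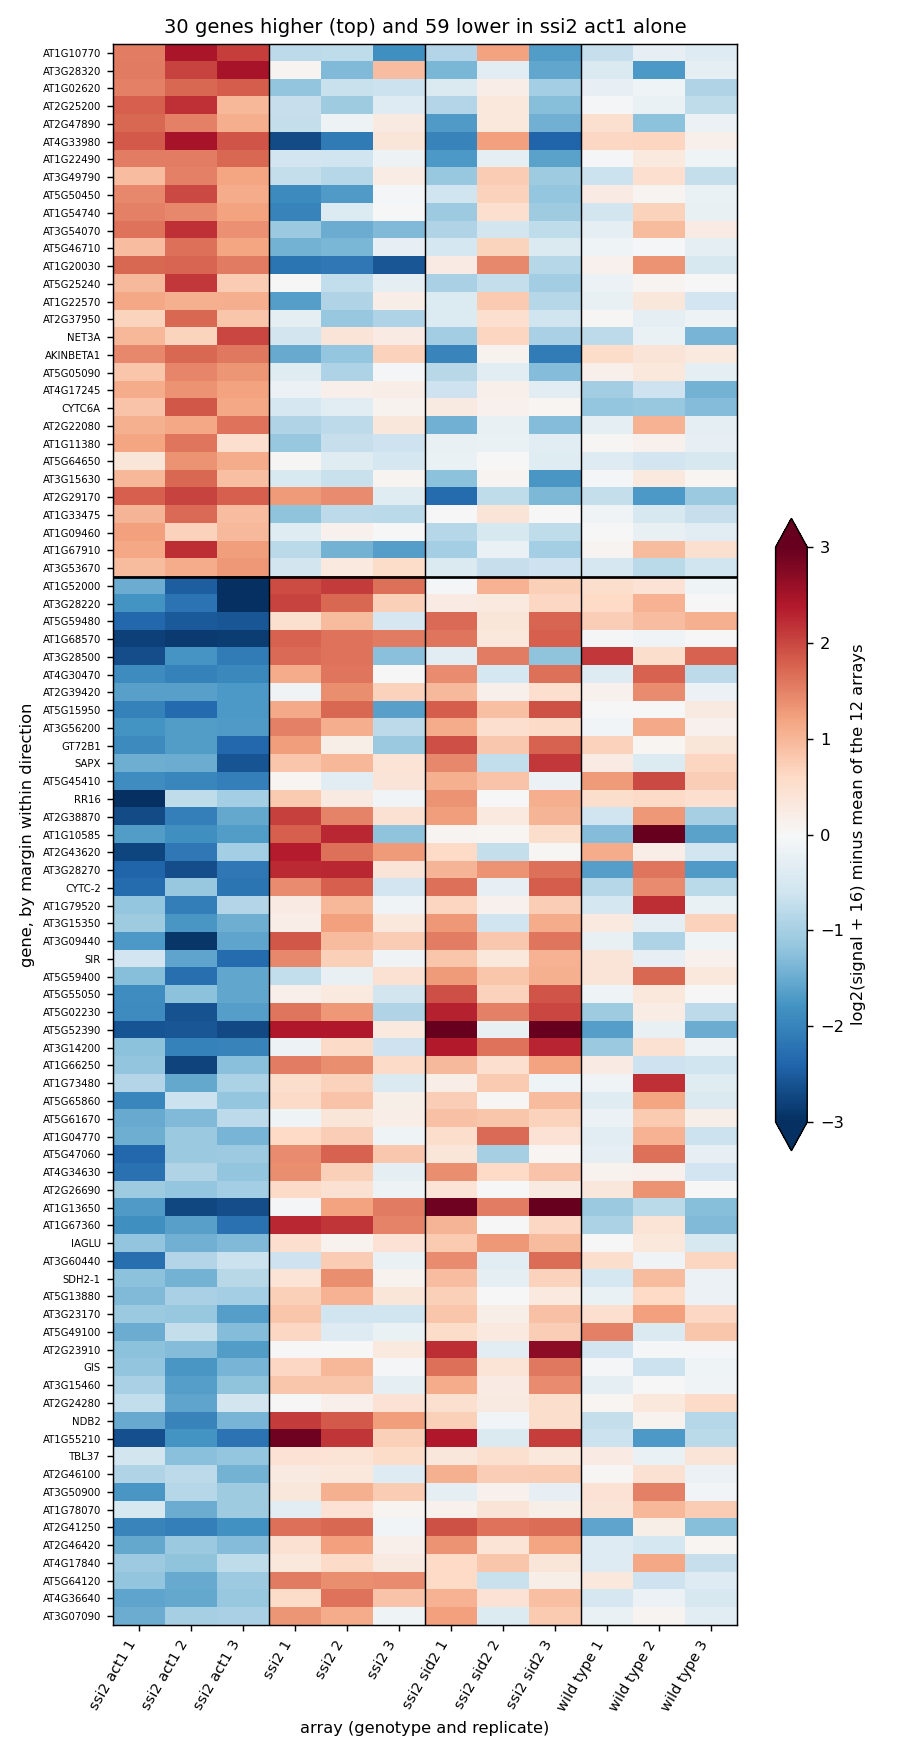
Levels of the 89 genes on the 12 arrays, as log2(signal + 16) minus the gene's mean over the arrays (red above, blue below), with the 30 higher genes on top and the 59 lower genes beneath, each ordered by margin. The 3 ssi2 act1 columns on the left are set apart by the rule itself, and among the others ssi2 sid2 replicate 2 and ssi2 replicate 3 are often paler than their replicates.

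Just inside the threshold lay AT1G09460, AT1G67910 and AT3G53670 on the high side, with margins of 1.04, 1.03 and 1.02, and AT5G64120, AT4G36640 and AT3G07090 on the low side, with -1.03, -1.03 and -1.02. Just outside it lay AT5G26960, AT5G41270 and AT1G52710, with 0.95, 0.93 and 0.93, and AT3G13040, AT1G62250 and AT4G24380, with -0.99, -0.99 and -0.98. The threshold therefore falls inside a run of like values on either side. A second, dimmer probe set of AT3G53670 read 7.28 in ssi2 act1 and 5.97 to 6.75 in the other genotypes on the log2 scale. Its margin of 0.52 fell short of the threshold.

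Among the higher genes, 3 carry a gene symbol of their own and 27 only a locus name. AKINBETA1 encodes a regulatory beta subunit of SnRK1, the protein kinase that senses the cell's energy status. Its signals were 5756, 7068 and 6392 in ssi2 act1, 736, 938 and 3414 in ssi2, 525, 2287 and 480.0 in ssi2 sid2, and 3099, 2758 and 2619 in wild type. The lowest ssi2 act1 array lay far above the highest array of the others, which was ssi2 replicate 3. The spread within ssi2 and within ssi2 sid2 was wide, with 1 array of each well above its replicates. The fitted difference was 1.17 ± 0.61 against wild type, 2.25 ± 0.61 against ssi2 and 2.91 ± 0.61 against ssi2 sid2 (log2 scale, SE).

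CYTC6A encodes cytochrome c6A, a haem protein of the thylakoid lumen. Its signals were 3339.5, 6705 and 4077 in ssi2 act1, 1289, 1437 and 1950.1 in ssi2, 2194, 2000.0 and 1914 in ssi2 sid2, and 801, 818 and 732 in wild type. The 4 genotypes formed 3 levels here, since ssi2 and ssi2 sid2 lay close together between ssi2 act1 and wild type and no wild-type array reached the lowest mutant array. NET3A, a member of the Networked family of actin-binding proteins, had signals of 294, 230.3 and 607 in ssi2 act1, 89.9, 188 and 168 in ssi2, 59.0, 226 and 63.4 in ssi2 sid2, and 73.7, 119 and 42.6 in wild type. Its lowest ssi2 act1 array and its highest ssi2 sid2 array were nearly level, at 230 and 226. AT1G22490, which encodes the basic helix-loop-helix transcription factor bHLH94, had signals of 374, 375 and 428 in ssi2 act1, 74.3, 73.3 and 106 in ssi2, 25, 96.3 and 28.2 in ssi2 sid2, and 113, 149 and 107 in wild type. Its ssi2 act1 arrays agreed closely, and wild type was the nearest genotype, with a margin of 1.56.

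The 4 genes with the largest margins on the high side have no annotated role in the tables used. AT1G10770 had signals of 257, 498 and 378 in ssi2 act1, 38.9, 39.1 and 10.3 in ssi2, 34.9, 202 and 13.4 in ssi2 sid2, and 42.4, 63.8 and 55.6 in wild type. By mean log2 level its nearest genotype was wild type, narrowly, and its mean signal in ssi2 act1 was 7.01 times that of wild type. By mean signal ssi2 sid2 was nearer, through replicate 2, which came within reach of the lowest ssi2 act1 array. AT3G28320 had signals of 185, 264 and 362 in ssi2 act1, 56.9, 11.3 and 113 in ssi2, 10.3, 38.7 and 7.08 in ssi2 sid2, and 34.3, 4.74 and 39.6 in wild type, and its margin of 2.12 was against ssi2. AT1G02620 had signals of 281, 332 and 351 in ssi2 act1, 30.2, 50.5 and 50.7 in ssi2, 62.1, 103 and 35.3 in ssi2 sid2, and 71.7, 79.7 and 40.5 in wild type. It was dim everywhere but in ssi2 act1, with a margin of 2.1 and an SD of 0.16 over the ssi2 act1 arrays. AT2G25200 was brighter, with signals of 3636, 4737 and 2061 in ssi2 act1, 636, 485 and 786 in ssi2, 555, 1296 and 414 in ssi2 sid2, and 983, 893 and 603 in wild type, and its margin was 2.0.

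Apart from AT1G22490, the next genes in order of margin were AT2G47890 at 1.64, AT4G33980 at 1.60, AT3G49790 at 1.49, AT5G50450 at 1.48, AT1G54740 at 1.42, AT3G54070 at 1.41, AT5G46710 at 1.36, AT1G20030 at 1.35, AT5G25240 at 1.33 and AT1G22570 at 1.26. AT4G33980 had signals of 2679, 4178 and 2752 in ssi2 act1, 100.5, 155 and 944 in ssi2, 172, 1758 and 126 in ssi2 sid2, and 1139.5, 1153 and 815 in wild type. Its ssi2 and ssi2 sid2 arrays spread widely, and the highest of each, ssi2 replicate 3 and ssi2 sid2 replicate 2, came closest to ssi2 act1. AT1G20030 had signals of 602, 612 and 534 in ssi2 act1, 24.5, 26.2 and 15.3 in ssi2, 206, 493 and 86.7 in ssi2 sid2, and 188, 457 and 117 in wild type, so that ssi2 lay far below the other genotypes. AT3G54070 had signals of 227, 348 and 187 in ssi2 act1, 20.9, 12.2 and 15.6 in ssi2, 26.3, 37.7 and 30.5 in ssi2 sid2, and 50.1, 138 and 78.3 in wild type, with ssi2 act1 highest, wild type in the middle and both other mutants at the bottom. The other 15 higher genes, AKINBETA1, CYTC6A and NET3A among them, had margins of 1.02 to 1.2. The brightest of all 30 in ssi2 act1 was AT3G15630, with signals of 8774, 14516 and 8233 in ssi2 act1, 3175, 2768 and 4666 in ssi2, 1867, 4624 and 1301 in ssi2 sid2, and 4251, 5422 and 4609 in wild type.

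**Figure D2:**
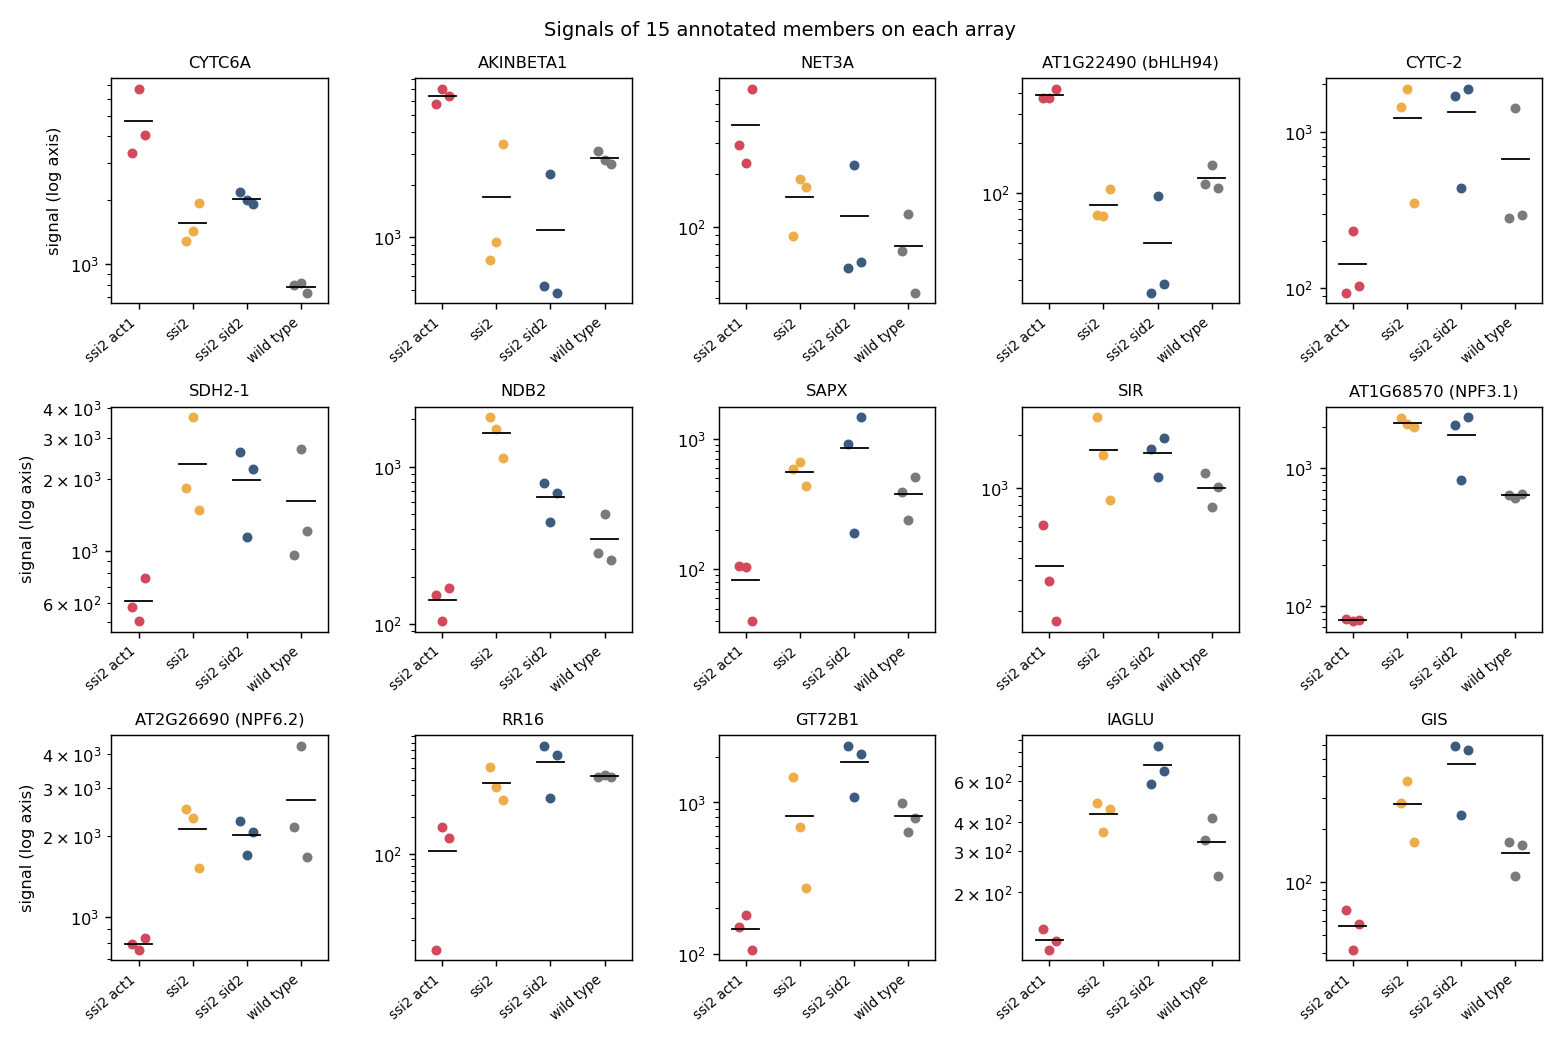
Signals of 15 members with an annotated role on each array, on a log axis, with points for the 3 arrays and a bar for the mean signal of each genotype. CYTC6A, AKINBETA1, NET3A and AT1G22490 are higher in ssi2 act1 and the other 11 are lower, and wild type or ssi2 sid2 replicate 2 often lies nearest to ssi2 act1.

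Among the lower genes, 10 carry a gene symbol of their own. The one with the largest margin among all 89 was AT1G52000, at -3.02, which has no annotated role in the tables used. Its signals were 195, 89.8 and 14.2 in ssi2 act1, 2251, 2503 and 1818 in ssi2, 547, 1186 and 942 in ssi2 sid2, and 835, 775 and 523 in wild type. The ssi2 act1 arrays differed widely among themselves, and the highest of them still lay below the lowest array of any other genotype. AT3G28220 had signals of 966, 717 and 338 in ssi2 act1, 13972, 11258 and 5648 in ssi2, 4019, 4163 and 5291 in ssi2 sid2, and 5179, 7085 and 3438 in wild type, and AT5G59480 had 57.0, 49.3 and 47.1 in ssi2 act1, 506, 704 and 249 in ssi2, 1202, 463 and 1240.2 in ssi2 sid2, and 611, 697 and 764 in wild type. Both kept all ssi2 act1 arrays far below the rest, with margins of -2.82 and -2.79.

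Members of the NRT1/PTR family, known as NPF, carry nitrate, peptides, glucosinolates or hormones across membranes. AT1G68570, which encodes NPF3.1, had signals of 80.8, 77.4 and 79.2 in ssi2 act1, 2319, 2086 and 1985 in ssi2, 2063, 827 and 2350.0 in ssi2 sid2, and 643, 613 and 653 in wild type. The ssi2 act1 arrays were nearly level, as were those of wild type. The difference was -2.78 ± 0.33 against wild type, -4.49 ± 0.33 against ssi2 and -4.08 ± 0.33 against ssi2 sid2 (SE). AT2G26690 encodes NPF6.2, a nitrate transporter. Its signals were 794, 754 and 831 in ssi2 act1, 2519.8, 2319.5 and 1514 in ssi2, 2267, 1697 and 2053 in ssi2 sid2, and 2148, 4312 and 1669 in wild type, with a margin of -1.31 and ssi2 act1 arrays that again agreed closely.

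Mitochondrial electron transport was represented by 3 lower genes. CYTC-2 encodes cytochrome c, which carries electrons from complex III to complex IV. Its signals were 93.6, 231 and 103 in ssi2 act1, 1438, 1864 and 349 in ssi2, 1676, 438 and 1875 in ssi2 sid2, and 281, 1421 and 295 in wild type. Within ssi2, ssi2 sid2 and wild type this gene took a high and a low level, and the low arrays lay between 281 and 438, still above the highest ssi2 act1 array. SDH2-1 encodes the iron-sulfur subunit of succinate dehydrogenase, complex II. Its signals were 577, 502 and 764 in ssi2 act1, 1831, 3663 and 1482 in ssi2, 2618, 1138 and 2217 in ssi2 sid2, and 957, 2693 and 1214 in wild type and wild type replicate 1 came nearest to the highest ssi2 act1 array. Another, dim probe set of SDH2-1 read 4.62 in ssi2 act1 and 4.2 to 4.37 in the other genotypes on the log2 scale, near the floor of 4, and did not repeat the pattern. NDB2 encodes an alternative NAD(P)H dehydrogenase on the outer face of the inner membrane, and it had signals of 154, 104 and 169.5 in ssi2 act1, 2068, 1729 and 1133 in ssi2, 784, 445 and 686 in ssi2 sid2, and 281, 504 and 254 in wild type. The genotypes stood in the order ssi2, ssi2 sid2, wild type and ssi2 act1 from high to low, and ssi2 sid2 and wild type overlapped.

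SAPX encodes the stromal ascorbate peroxidase, which removes hydrogen peroxide in chloroplasts. Its signals were 106, 104 and 39.9 in ssi2 act1, 584, 664 and 432 in ssi2, 906, 188 and 1462 in ssi2 sid2, and 388, 239.7 and 512 in wild type, and ssi2 sid2 replicate 2 was the lowest array outside ssi2 act1. SIR encodes sulfite reductase, which turns sulfite into sulfide on the way to cysteine. Its signals were 615, 299 and 176 in ssi2 act1, 2534, 1537 and 861 in ssi2, 1659.8, 1159 and 1917 in ssi2 sid2, and 1221, 781 and 1016 in wild type. Its ssi2 act1 arrays spread over a wide range, and the highest of them came closest to wild type replicate 2.

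RR16, also called ARR16, is a type-A response regulator that damps cytokinin signalling. Its signals were 16.5, 164 and 134 in ssi2 act1, 509, 349 and 271 in ssi2, 757, 285 and 636 in ssi2 sid2, and 424, 440.0 and 417 in wild type. Replicate 1 of ssi2 act1 was far below its 2 replicates, the wild-type arrays were nearly level, and the margin was -1.99. IAGLU encodes an enzyme that joins glucose to indole-3-acetic acid, the main auxin. Its signals were 139, 113 and 123 in ssi2 act1, 484, 364 and 457 in ssi2, 585, 853 and 666 in ssi2 sid2, and 336, 417 and 236 in wild type. The order was ssi2 sid2, ssi2, wild type and ssi2 act1 from high to low, and wild type overlapped with ssi2. GIS encodes a zinc finger protein that promotes trichome formation, and had signals of 69.3, 41.5 and 57.8 in ssi2 act1, 281, 375 and 169.9 in ssi2, 592, 240.4 and 562 in ssi2 sid2, and 169.5, 108 and 163 in wild type. The trichome regulator TRY, which is no member, had signals of 26.3 to 47.2 in ssi2 act1, 16.4 to 300.3 in ssi2, 395 to 753 in ssi2 sid2 and 14.7 to 32.4 in wild type, so TRY and GIS were both highest in ssi2 sid2, while TRY overlapped between ssi2 act1 and wild type. The part of trichome number in the levels of GIS was not tested.

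GT72B1, also named UGT72B1, encodes a glucosyltransferase that acts on phenols and monolignols. It had signals of 151, 179.9 and 106 in ssi2 act1, 1469.7, 693 and 272 in ssi2, 2376, 1088 and 2103 in ssi2 sid2, and 998, 638 and 789.9 in wild type, and its margin of -2.08 was against ssi2, whose own arrays spread widely. TBL37 belongs to the trichome birefringence-like family, whose studied members add acetyl groups to wall polysaccharides. Its signals were 303, 178 and 192 in ssi2 act1, 615, 607 and 665 in ssi2, 572, 637 and 561 in ssi2 sid2, and 533, 387 and 593 in wild type. AT5G64120 encodes the secreted class III peroxidase PRX71 and had signals of 99.2, 77.2 and 108 in ssi2 act1, 757, 682 and 683 in ssi2, 385, 150.0 and 282 in ssi2 sid2, and 314, 155 and 186 in wild type, with ssi2 highest and ssi2 act1 lowest.

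Of the lower genes without an annotated role in the tables used, AT3G28500 at -2.19 and AT4G30470 at -2.14 had the widest margins after these. AT2G39420, AT5G15950 and AT3G56200 followed at -2.12 each, then AT5G45410 at -2.0, AT2G38870 at -1.98 and AT1G10585 at -1.96. AT5G45410 had signals of 119, 111 and 102 in ssi2 act1, 497, 376 and 629 in ssi2, 1018, 864 and 415 in ssi2 sid2, and 1165, 1909.7 and 799 in wild type. AT3G28500 had signals of 65.1, 134 and 104 in ssi2 act1, 1643, 1562 and 197 in ssi2, 396, 1477 and 207 in ssi2 sid2, and 2205, 724 and 1724 in wild type, so that ssi2 replicate 3 and ssi2 sid2 replicate 3 came close to the highest ssi2 act1 array. AT1G10585 had signals of 25.7, 21.5 and 25.5 in ssi2 act1, 448, 627 and 41.7 in ssi2, 125, 124 and 177 in ssi2 sid2, and 38.5, 3058 and 28.1 in wild type. Wild type replicate 2 was by far the brightest array, and its replicates lay just above ssi2 act1. Without wild type replicate 2 the margin was -0.29 and the gene no longer met the rule.

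The lowest signals of all were those of AT5G52390, at 3.59, 3.86 and 2.16 in ssi2 act1, 611, 608 and 128 in ssi2, 1161, 84.9 and 924 in ssi2 sid2, and 21.7, 85.2 and 26.3 in wild type. Its ssi2 act1 arrays stand at the bottom of the scale, so that no ratio can be read from them. AT3G14200 was also close to the floor in ssi2 act1, with signals of 19.3, 4.39 and 4.74 in ssi2 act1, 59.0, 107 and 37.8 in ssi2, 416, 239 and 387 in ssi2 sid2, and 22.3, 97.9 and 58.5 in wild type. The other lower genes had margins between -1.94 and -1.02.

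The arrays of the other 3 genotypes were not equally far from ssi2 act1. Among the 3 arrays of ssi2 sid2, replicate 2 was the nearest to ssi2 act1 for 28 of the 30 higher genes (93.3%) and for 46 of the 59 lower genes (78.0%). Over all probe sets it held that place for 41.4% of comparisons on the high side and 35.0% on the low side. Replicate 3 of ssi2 was the nearest of its genotype for 19 higher (63.3%, against 38.9% of all probe sets) and 43 lower genes (72.9%, against 38.7%). Replicate 2 of wild type was the nearest for 19 higher genes (63.3%, against 33.1%) but for 15 lower ones (25.4%, against 47.8%).

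As a median over the 30 higher genes, the difference from the wild-type mean was 1.4, 1.82 and 1.34 in the ssi2 act1 arrays, -0.50, -0.64 and -0.05 in ssi2, -0.60, 0.57 and -0.86 in ssi2 sid2, and 0.05, 0.17 and -0.14 in wild type. Over the 59 lower genes it was -1.63, -1.66 and -1.53 in ssi2 act1, 0.74, 0.93 and 0.05 in ssi2, 0.83, 0.20 and 0.89 in ssi2 sid2, and -0.17, 0.35 and -0.25 in wild type. Both ssi2 sid2 replicate 2 and ssi2 replicate 3 were thus shifted towards ssi2 act1 in both groups of genes, in opposite directions on the log2 scale. With ssi2 sid2 replicate 2 left out, the rule gave 38 higher and 66 lower genes, which held all 30 and 58 of the 59 members. What sets that array apart from its replicates was not tested.

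**Figure D3:**
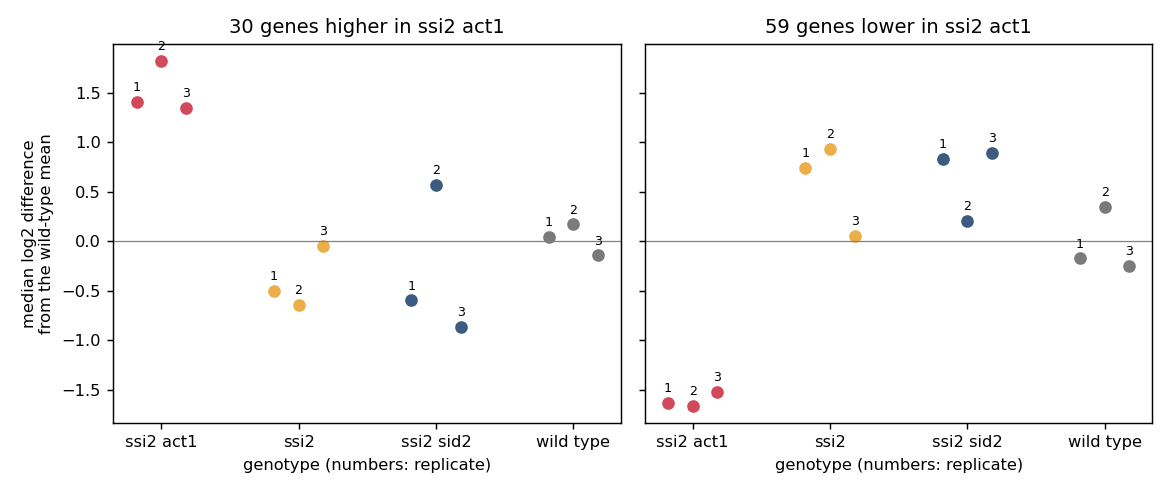
Median difference of the members from their wild-type mean on each array, in log2 units, for the 30 higher genes (left) and the 59 lower genes (right), with the replicate number above each point. The ssi2 act1 arrays lie at 1.34 to 1.82 and at -1.66 to -1.53, and ssi2 sid2 replicate 2 and ssi2 replicate 3 lie nearer to them than their replicates do.

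The rule was also applied with 1 ssi2 act1 array left out, and that array was then read for the genes so chosen. The 9 arrays of the other genotypes entered both the choice and the reading. The shares below are therefore partly built in and only describe the array left out. On the high side 46, 36 and 45 genes were chosen without replicates 1, 2 and 3. The array left out lay above all 9 others for 37 of the 46 (80.4%), 24 of the 36 (66.7%) and 31 of the 45 (68.9%), and above the nearest genotype mean for 44, 32 and 40. On the low side 81, 73 and 78 genes were chosen, and the array left out lay below all 9 others for 57 (70.4%), 54 (74.0%) and 63 (80.8%), and below the nearest genotype mean for 68, 71 and 74. Over all probe sets a single ssi2 act1 array lay above the 9 others for 9.50% to 12.5% and below them for 9.60% to 11.7%. Those shares come without any choice of genes or brightness limit, so they are not a like measure. The median distance of the array left out from the nearest genotype mean was 0.89 to 1.01 on the high side and -1.12 to -1.03 on the low side, which is less than the median margins of 1.23 and -1.38 among the members.

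The 3 comparisons among ssi2, ssi2 sid2 and wild type are not free of the rule either. A lower gene had to reach a mean of 8 in one of these genotypes, and 17 of the 59 had a wild-type mean under 8 and entered only because a mutant was brighter. Of these, 4 entered through ssi2, 5 through ssi2 sid2 and 8 through both. The counts of calls among the lower genes below are therefore a description, and nothing is read from how they compare with all probe sets. All 30 higher genes reached the limit in ssi2 act1, yet they are not free of the choice either. The rule asked every ssi2 act1 array to lie beyond every array of the other genotypes, which favours genes with little spread within genotypes. The comparisons were tested with limma over all 22746 probe sets, and a probe set was called at an adjusted p under 0.05. The fit pools the spread of all genotypes, ssi2 act1 included. The SEs and p-values of higher and lower members may therefore be too small, and by how much was not tested. They and the counts of calls are given as a description. Any pair of the comparisons shares the arrays of 1 genotype, so their values are given side by side and not set against each other.

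In ssi2 against wild type, 9 of the 59 lower genes were called higher and 0 lower by limma, with 4 lower at an unadjusted p under 0.05. Of all probe sets 5.77% were called higher and 4.34% lower. Of the 9 called genes 4 had a wild-type mean under 8, AT5G64120, AT4G36640, AT1G13650 and AT2G41250. Of the 30 higher genes, 3 were called higher and 3 lower. The calls over both groups of members numbered 15 with all arrays, 8 without ssi2 replicate 2, and 23 without both wild type replicate 2 and ssi2 replicate 3.

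Calls that held under every alternative run in this comparison were 6 of the 15, and their SEs and p-values are not free of the choice of members. NDB2, the mitochondrial dehydrogenase, was higher in ssi2 by 2.22 ± 0.34 (SE, limma adjusted p = 0.0017), and AT1G67360 by 2.59 ± 0.43 (adjusted p = 0.0029). AT1G68570, the transporter NPF3.1, was higher by 1.72 ± 0.33 (adjusted p = 0.0062), and AT5G64120, the peroxidase PRX71, by 1.68 ± 0.34 (adjusted p = 0.0077), the last with a wild-type mean of 7.81 that fell short of the limit. For these 4 genes ssi2 thus lay above wild type and ssi2 act1 below it. AT3G54070 and AT1G20030 were lower in ssi2 than in wild type, by -1.62 ± 0.32 (adjusted p = 0.0074) and -2.64 ± 0.54 (adjusted p = 0.0086), and ssi2 act1 lay above wild type for both. AT1G67360, which has no annotated role in the tables used, had signals of 119, 139 and 86.7 in ssi2 act1, 2320.0, 2134 and 1333 in ssi2, 969.8, 475 and 725 in ssi2 sid2, and 234, 631 and 177 in wild type.

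The other 9 calls were lost under at least 1 alternative. AT1G67910 (-1.79) lost its call without both wild type replicate 2 and ssi2 replicate 3 (adjusted p = 0.0584), and AT1G55210 (2.99) without ssi2 replicate 1 or replicate 2 (adjusted p up to 0.0781). AT4G36640 (1.4) was lost under both other scalings and with the 6 compared arrays alone. AT4G17245 (1.08), CYTC6A (0.96), AT2G29170 (1.97), AT3G09440 (1.63), AT1G13650 (1.96) and AT2G41250 (1.99) each lost theirs on leaving out single arrays of ssi2 or wild type, with adjusted p values that reached 0.101 to 0.245. AT2G29170 had signals of 378, 449.6 and 379 in ssi2 act1, 259, 287 and 72.8 in ssi2, 7.0, 51.0 and 28.6 in ssi2 sid2, and 52.7, 18.1 and 36.0 in wild type, which set ssi2 replicates 1 and 2 near ssi2 act1 and replicate 3 apart from them.

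In ssi2 sid2 against wild type, 12 of the 59 lower genes were called higher and 0 lower by limma, with 0 lower at an unadjusted p under 0.05. Of all probe sets 3.62% were called higher and 2.79% lower. The wild-type mean was under 8 for 9 of the 12 called genes, all but AT1G68570, AT3G09440 and IAGLU. Of the 30 higher genes 1 was called, CYTC6A, higher by 1.36 ± 0.28 (limma adjusted p = 0.014). The CYTC6A call was lost without ssi2 sid2 replicate 1 or 3, without wild type replicate 3 and under median centring, with an adjusted p of up to 0.0604. The count of 13 calls leaned on single arrays. It was 3 without ssi2 sid2 replicate 1, 3 without ssi2 sid2 replicate 3, 3 without wild type replicate 3, 5 without wild type replicate 1, 7 without ssi2 act1 replicate 3 and 17 without ssi2 sid2 replicate 2.

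The 3 calls that held under every alternative were those of AT1G13650, at 3.61 ± 0.50 (limma adjusted p = 0.0023), AT3G14200, at 2.36 ± 0.43 (adjusted p = 0.0085), and AT2G41250, at 2.64 ± 0.50 (adjusted p = 0.010). All 3 reached the brightness limit only through a mutant, AT3G14200 through ssi2 sid2 alone, so that a difference of some size was asked for by the choice. AT1G13650 had signals of 28.5, 5.67 and 6.93 in ssi2 act1, 122, 316 and 412 in ssi2, 1075, 401 and 1293 in ssi2 sid2, and 51.2, 66.7 and 43.5 in wild type. AT2G41250 had signals of 87.1, 82.4 and 99.0 in ssi2 act1, 1247, 1319 and 369 in ssi2, 1515, 1237 and 1282 in ssi2 sid2, and 120.0, 439 and 149.9 in wild type. In both genes the ssi2 sid2 arrays lay far above wild type and the ssi2 act1 arrays below it, and neither has an annotated role in the tables used. The calls of AT1G68570 (1.3), AT3G09440 (1.74), AT5G55050 (1.43), AT5G02230 (2.48), AT5G52390 (3.15), IAGLU (1.07), GIS (1.49), AT2G46420 (1.26) and AT4G36640 (1.18) were each lost without ssi2 sid2 replicate 1, among other alternatives.

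In ssi2 sid2 against ssi2, 2 of the lower genes were called higher and 1 lower, and of the higher genes 1 was called in each direction. Of all probe sets 1.42% were called higher and 1.71% lower. The 3 called lower genes, AT3G14200, AT5G55050 and AT5G64120, all had a wild-type mean under 8. AT1G20030 (2.59), AT3G14200 (2.16) and AT5G55050 (1.53) were higher in ssi2 sid2, and AT2G29170 (-2.25) and AT5G64120 (-1.42) were lower. Each of the 5 calls was lost under 5 or more alternatives. The count of called members was 1 on leaving out any of ssi2 replicates 1, 2 and 3 or ssi2 sid2 replicates 1 and 3. Without ssi2 replicate 1 all 5 calls were lost, so the 1 member called there was another gene.

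**Figure D4:**
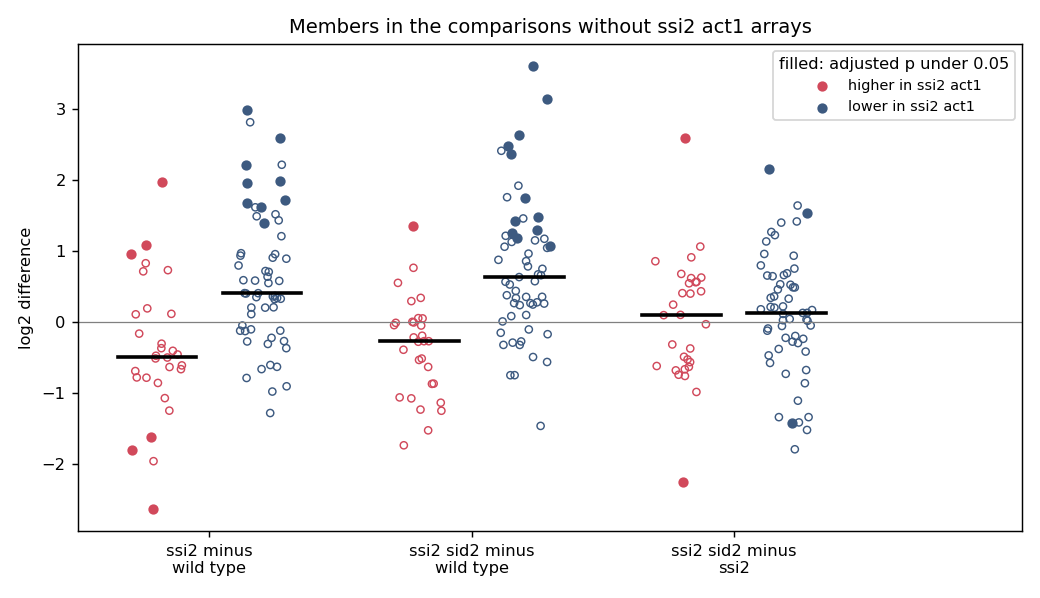
Differences of the members in the 3 comparisons without ssi2 act1, in log2 units, with red for the 30 genes higher and blue for the 59 lower in ssi2 act1, filled points for an adjusted p under 0.05 and bars for medians. In both comparisons with wild type every filled blue point lies above 0, and 17 of the 59 blue genes met the brightness limit only through ssi2 or ssi2 sid2.

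Relatives of the annotated members were then read by symbol and synonym, a set of families drawn up after the members' values had been seen, and only values are given for them. Of all 5613 genes with a genotype mean of at least 8, the lowest mean was that of ssi2 act1 in 20.2% and the highest in 27.0%. In the NPF family 11 genes were measured and 5 reached a genotype mean of 8. Besides the members NPF3.1 and NPF6.2, which are lowest in ssi2 act1 by the rule, there were 3, and ssi2 act1 had the lowest mean in each. They were AT3G21670, which encodes NPF6.4, and GTR1 and GTR2, which carry glucosinolates. AT3G21670 had signals of 424, 239.7 and 337 in ssi2 act1, 2986, 2479.6 and 422 in ssi2, 4446, 3759 and 4961 in ssi2 sid2, and 1043, 5556 and 963 in wild type. It missed membership because ssi2 replicate 3 lay within the ssi2 act1 range, although its difference was -2.39 against wild type, -2.12 against ssi2 and -3.68 against ssi2 sid2. GTR1 had signals of 553, 356 and 287 in ssi2 act1, 825, 964 and 462 in ssi2, 1019, 1117 and 962 in ssi2 sid2, and 606, 402 and 732 in wild type and GTR2 of 452, 198 and 417 in ssi2 act1, 897, 959.6 and 1428 in ssi2, 556, 454 and 358 in ssi2 sid2, and 638, 1541 and 733 in wild type. In both the ssi2 act1 arrays overlapped with at least 1 other genotype.

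For the mitochondrial members, 11 genes for cytochrome c, complex II subunits and alternative NAD(P)H dehydrogenases were read, and 8 reached a mean of 8. Other parts of mitochondrial electron transport were not read. The 5 of these that are no members had their lowest mean in ssi2 act1, by amounts that differed widely. SDH2-2, another gene for the iron-sulfur subunit of complex II, had signals of 390.0, 568 and 426 in ssi2 act1, 1076, 1307 and 1086 in ssi2, 1173, 502 and 1073 in ssi2 sid2, and 1821, 2486 and 1509 in wild type, with a difference of -0.89 from ssi2 sid2, the nearest genotype, whose replicate 2 lay inside the ssi2 act1 range. SDH1-1, for the flavoprotein subunit, differed by -2.02 from ssi2 and -1.52 from ssi2 sid2, but by -0.30 from wild type, whose arrays it overlapped. CYTC-1 differed by -0.09 from ssi2 sid2 and NDC1 by -0.04 from wild type, less than the spread between replicates, and NDB1 was level with ssi2 sid2.

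The other families held fewer bright genes. Both other SnRK1 regulatory genes, AT2G28060 and AT4G16360, were above all genotypes in ssi2 act1 by only 0.06 and 0.05 at the smallest, against 1.17 for AKINBETA1. TAPX, the thylakoid counterpart of SAPX, was at a difference of 0.94 from ssi2 and of -0.21 from ssi2 sid2. ARR15, the close relative of RR16, was dimmer, with signals of 27.6, 22.3 and 4.16 in ssi2 act1, 87.0, 62.2 and 67.9 in ssi2, 117, 91.4 and 116 in ssi2 sid2, and 174, 123 and 92.8 in wild type, with a difference of -1.44 from ssi2, the nearest genotype. It did not reach the brightness the rule asks for. In the trichome birefringence-like family 22 genes were measured and 6 reached a mean of 8, and of the 5 that are no members 1 was lowest and 2 were highest in ssi2 act1.

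**Figure D5:**
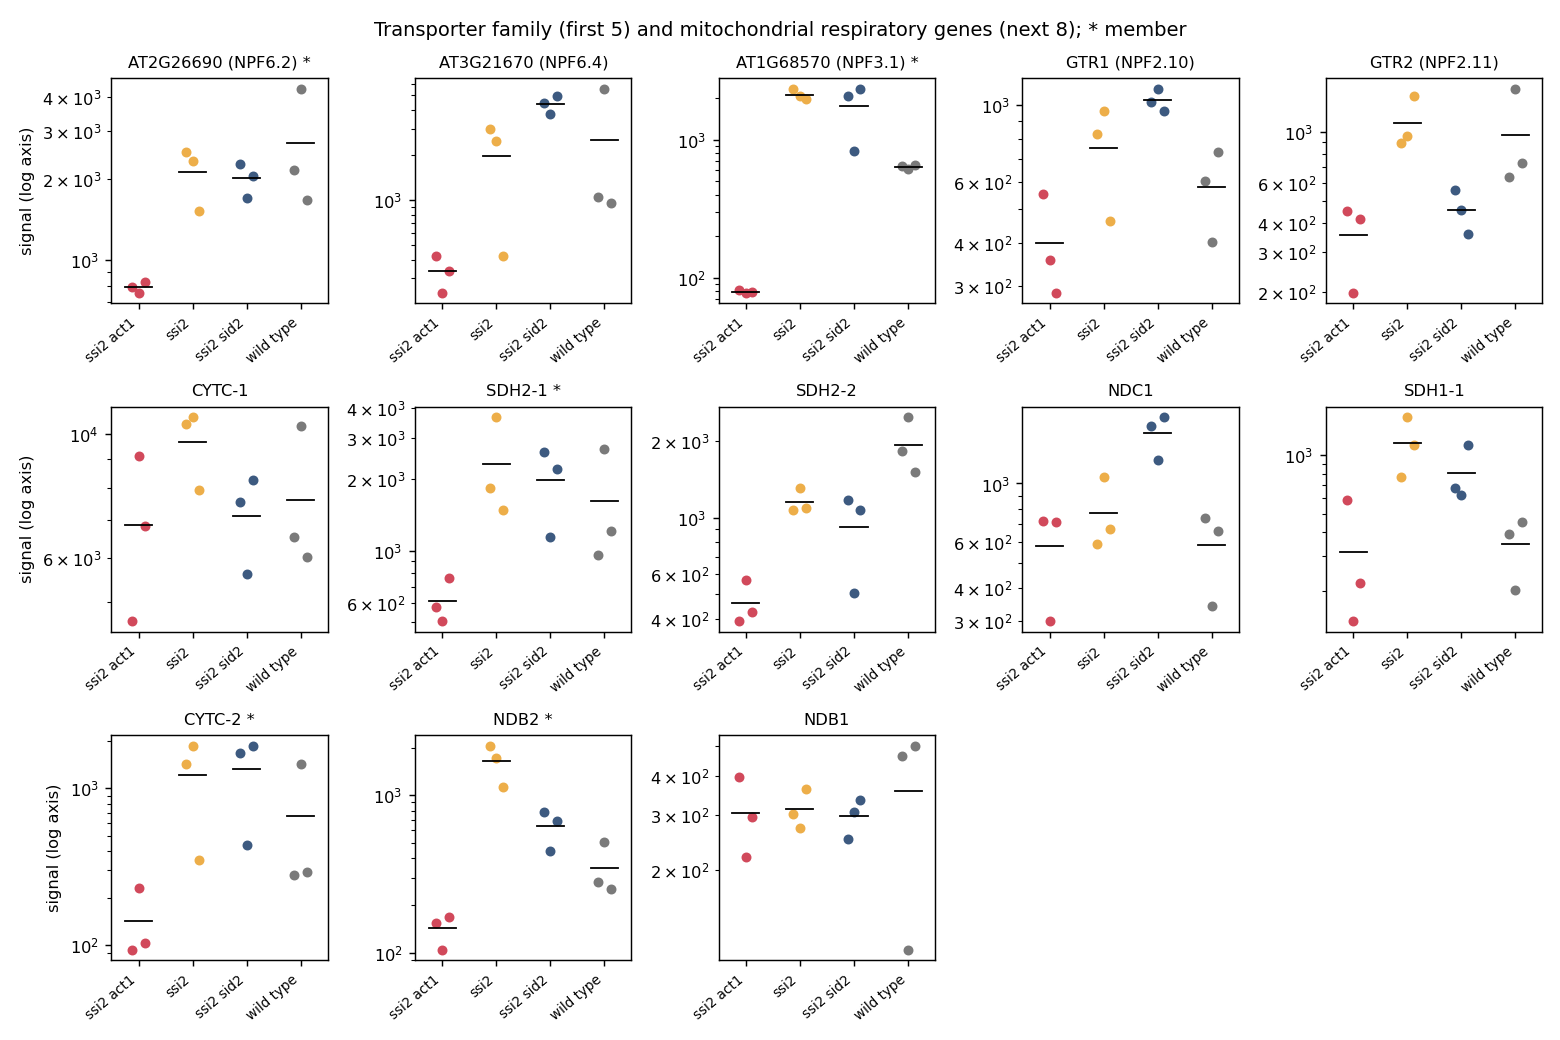
Signals of the 5 brighter NPF transporter genes and the 8 brighter genes from the families of the mitochondrial members on each array. The axis is logarithmic, with points for arrays, bars for the mean signal and an asterisk for members. The ssi2 act1 mean of log2(signal + 16) is the lowest in all 13, by the rule itself in the 5 members, with a difference of -2.78 from the nearest genotype for AT1G68570 and almost none for NDB1.

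Of 27 lists of pathway and marker genes, 25 had a measured gene, and 94 genes were measured in all. The members overlapped with these lists in 2 genes. NDB2 stood in a list of oxidative stress and detoxification with 7 measured genes. Of the other 6, limma called GSTU25 and STZ lower in ssi2 act1 than in ssi2, STZ lower than in ssi2 sid2, and 0 against wild type, where 1 was higher at an unadjusted p under 0.05. Of all probe sets 3.17% were called higher and 5.2% lower than in ssi2, 2.44% and 3.96% than in ssi2 sid2, and 0.664% and 1.13% than in wild type. RR16 stood in a list of hormone genes with 5 measured. Of the other 4, 1 was called lower in ssi2 act1 than in wild type, 2 lower than in ssi2 and 1 lower than in ssi2 sid2. ARR15 was among them each time, and the other gene was GID1B. The median difference from wild type over the genes that are no members was 0.59 in the oxidative stress list and -0.81 in the hormone list, against 0.03 over all probe sets. The auxin list, with 8 measured genes, and the cell wall list, with 14, held 0 members. These counts describe few genes.

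Position on the chromosomes was read as the order of measured genes in the TAIR10.1 annotation. Members lay on all 5 nuclear chromosomes, which hold 25.7%, 16.3%, 20.5%, 14.6% and 22.4% of the measured genes in order of number. Of the higher genes 11, 5, 5, 2 and 7 lay on them in that order, and of the lower genes 11, 11, 14, 9 and 14. Of the 89 members, 10 (11.2%) had another member within 10 measured genes. The same count, over the genes matched to that annotation, was 69 of 218 genes (31.7%) for ssi2, 25 of 120 (20.8%) for ssi2 sid2 and 10 of 113 (8.85%) for wild type. Such a share rises with the number of genes in a set, so these shares are not set against each other. No share for genes placed at random was computed, and nothing is read from the runs named next. One run on chromosome 3 held AT3G28220, AT3G28270, AT3G28320 and AT3G28500, of which AT3G28320 was higher in ssi2 act1 and the others lower. The other runs were the pairs AT1G22490 with AT1G22570, both higher, and AT3G15350 with AT3G15460 and AT5G59400 with AT5G59480, all lower.

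Membership depended on the settings. Under quantile normalization the rule gave 33 higher and 44 lower genes, of which 29 and 43 were members, and under median centring 41 and 45, of which 26 and 43 were members. Under all 17 alternatives of scaling, pseudocount and arrays, 11 of the 30 higher and 22 of the 59 lower genes met the rule each time. AKINBETA1, AT1G22490 and AT1G02620 were among the 11, and AT1G68570, AT2G26690, SAPX, SIR, RR16 and IAGLU among the 22. None of the 3 mitochondrial genes was: CYTC-2 failed under both other scalings, SDH2-1 without wild type replicate 2, and NDB2 without that array, without ssi2 act1 replicate 2 and with a pseudocount of 64. GT72B1 also failed under both other scalings. CYTC6A failed without ssi2 act1 replicate 2, GIS with a pseudocount of 64, and NET3A, TBL37 and AT5G64120 with that pseudocount and on leaving out single arrays. No margin changed its sign in 1513 readings of the 89 margins, and 15 readings moved by more than the spread between replicates. The rule puts every ssi2 act1 array beyond all others, so leaving out arrays or changing the pseudocount could not reverse a sign. Only quantile normalization and median centring could have done so, and under both of them no margin was reversed.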

How the data were processed

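Total leaf RNA of 12 samples was hybridised to Affymetrix arrays. The deposited values are linear signal intensities, 1 per probe set and array, per the file headers and values. Affymetrix Expression Console 1.0 is listed in the submitters' processing notes. The summary algorithm is not given in the sources used here. Each array had a trimmed mean of 500.042 to 500.06, as after scaling to a common target, so levels are relative to the rest of the array. Detection calls were not used here.

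Signals became log2(signal + 16), which understates differences of dim genes. All 22746 probe sets outside the 64 controls were fitted with limma 3.58.1 in R 4.3.3, with 1 mean a genotype and no block, and Benjamini-Hochberg adjusted. Of 22810 probe sets, 13513 name 1 gene, 503 several and 8794 none. The brightest probe set stands for a gene, and 13436 of the 13513 matched RefSeq TAIR10.1. Sequences were not used here.

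Members, families and lists were chosen with earlier results of these data known. Named are the 15 genes of largest margin each way, members in a list or called among the other genotypes, the 3 nearest each side of the threshold, and annotated members.

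Alternatives were quantile normalization, median centring, pseudocounts of 1 and 64, a brightness filter, leaving out arrays, and replicate number as a block. Same-numbered arrays of different genotypes correlated, as deviations from their genotype means, with r of -0.38 to 0.33 over 18 pairs, 6 of them over 0.1. These r values cannot decide whether same-numbered samples shared a growth, and the main fit did not pair them.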

Additional observations from a re-analysis of the deposited data

How the results depend on the processing

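Of the 30 higher genes, a required difference of 1.5 left 7, and leaving out both wild type replicate 2 and ssi2 replicate 3 gave 59, of which 29 were members. Leaving out 1 array gave 28 to 46, the highest without ssi2 act1 replicate 1 or wild type replicate 2. Of the 59 lower genes, a difference of 1.5 left 26 and a pseudocount of 64 gave 37. Without both arrays there were 95 (44 members), and without 1 array 56 to 90, the highest without ssi2 replicate 3. Like counts can hide a change of genes. Without wild type replicate 2 the lower genes again numbered 59, of which 44 were members. On the high side 36 genes came without ssi2 act1 replicate 2, of which 21 were members. The shares of genes whose left-out array lay beyond all 9 others did not move by over 1.5 times.

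The 2299 probe sets called in ssi2 against wild type were 1161 with the 6 compared arrays alone, 3161 without both arrays and 1291 to 2842 without 1 array. The 15 members among them were 23 without both arrays, 9 with 6 arrays and 8 to 18 without 1. In ssi2 sid2 against wild type, 1458 probe sets became 955 with a pseudocount of 1, 2246 without both arrays and 461 to 1779 without 1. Its 13 members became 6 under quantile normalization, 6 under median centring, 4 with a pseudocount of 1, 7 with 6 arrays and 3 to 17 without 1 array, and 8 with the replicate block. In ssi2 sid2 against ssi2, 711 probe sets became 379 with a pseudocount of 1 and 233 to 1126 without 1 array. Its 5 members became 3 under median centring, 1 with a pseudocount of 1, 1 with 6 arrays and 1 to 7 without 1 array, and 3 with the replicate block. The causes were not tested, beyond the fewer arrays in some fits. Of the 12 arrays, 3 were most like a same-numbered one, and whether a number stands for a shared growth is not stated.

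The rule reads 3 arrays a genotype, and 30 lower genes have ssi2 act1 signals under 100, where ratios are uncertain. Gene names cover 13350 genes, so the probe sets without a name that met the rule are counted but not described.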
